A study of Ovis aries with 18 samples.

Results

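Genotype-like cytosines are single cytosines of sperm DNA whose methylation took discrete levels that differed between rams while the cytosines around them stayed the same. Members were selected on the measured levels themselves: on a numbered chromosome, the share of methylated reads had to lie within 10 percentage points of 0%, 50% or 100% in all 6 rams, with at least 2 of these 3 classes present among the rams. In addition, the mean level of the other same-strand cytosines within 50 bp had to have a range over the 6 rams of at most 10 points. The rule found 2342 cytosines among 1813357 on the numbered chromosomes, or 129 per 100000, and these lay in 2237 CpG dinucleotides because in 105 CpGs the cytosines of both strands qualified. Another 1598 cytosines met the class part of the rule but had neighbours that varied by more than 10 points, and 920 had no neighbour within 50 bp.

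Sperm came from 6 Polypay rams, 3 fed a basal control diet (Ram410, Ram423 and Ram444) and 3 fed that diet topped with rumen-protected methionine (1.5 g, 0.22%) before puberty (Ram424, Ram498 and Ram511). Semen was collected after supplementation had ended, and only samples that passed a limit on sperm number and motility were used. A ram of each diet that did not pass was removed, so the values describe sperm of young rams that had reached that limit. Methylation was measured by reduced representation bisulfite sequencing (RRBS), which reads CpG-rich restriction fragments. The labels give no genotype, pedigree or ancestry of the rams beyond their breed.

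In mammals DNA methylation is placed mainly on the cytosines of CpG dinucleotides, which read as CpG on both strands, and maintenance methylation copies the mark from strand to strand. Bisulfite treatment turns unmethylated cytosines into uracil, read as thymine, whereas methylated cytosines are still read as cytosine. A site where the DNA itself carries thymine in place of cytosine is therefore read like an unmethylated cytosine, and a CpG changed at either base is no longer a CpG on the other strand. Diploid males pass either of their alleles to a given sperm, so a ram that carries different alleles yields sperm of both kinds. This is background: the reads hold no separate call of the DNA sequence, and the sequence at these sites was not analysed here.

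The members were sites of high methylation in most rams. Over all rams, 56.9% of the ram and member combinations fell in the 100% class, 26.9% in the 50% class and 16.3% in the 0% class, and these shares describe what the rule selected. Individual rams were alike in this respect, with 54.5% to 59.5% of members in the 100% class, 24.98% to 30.6% in the 50% class and 14.9% to 17.2% in the 0% class. Ram424 had the highest share in the 50% class, and Ram498 had the lowest. Control rams held 26.4% ± 1.03 (SD, n = 3) of members in the 50% class and methionine-treated rams 27.3% ± 2.94 (SD, n = 3).

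Among the rams, 25 combinations of class counts occurred. The most frequent was a single ram at 50% with the other 5 at 100%, found at 775 members (33.1%), followed by 2 rams at 50% and 4 at 100% at 358 members (15.3%). A ram at 0% with the other 5 at 100% was found at 90 members. Levels of 50% and 100% without any ram at 0% made up 1308 members, 0% and 50% without 100% made up 230, all 3 classes together 651, and 0% and 100% without 50% only 153. Thus, where both 0% and 100% occurred, 81.0% of 804 members also had a ram at 50%. At 989 members (42.2%) exactly 1 ram differed from the other 5, and this ram was Ram423 at 201 members, Ram424 at 196, Ram410 at 189, Ram511 at 172, Ram498 at 116 and Ram444 at 115.

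Depth was limited at these sites. Taking at each cytosine the ram with the fewest reads, the median was 11 reads at members, 17 reads over all cytosines of the numbered chromosomes and 11 reads at those whose neighbours were stable at 95% or more. The median coverage of members was 12 reads in Ram498 and 16.5 reads in Ram511, although these rams had medians of 39 and 31 reads over all numbered chromosomes, and in the other rams it was 23 to 25 reads. Members were not read more deeply in any class: the median coverage per ram was 12 to 24 reads in the 0% class, 12 to 26 in the 50% class and 12 to 25 in the 100% class. From the binomial distribution, reads drawn from an equal mixture fall within the limits of the 50% class in 65.6% of draws at 10 reads, 45.1% at 11 reads and 84.6% at 40 reads. Only 34 members had at least 20 reads in each ram.

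The level of the surroundings was not part of the rule, which used only their range. At 2258 of the 2342 members (96.4%) the neighbours had a mean level over 95%, whereas only 6.71% of all 1554593 cytosines with stable neighbours had such neighbours and 90.2% had neighbours at 5% or less. Relative to the cytosines with stable neighbours, there were 2164 members per 100000 in surroundings over 95% and 2.0 per 100000 in surroundings at 5% or less. Of the 7595 graded cytosines, which had stable neighbours and a range of at least 30 points but levels outside the classes in some ram, 50.1% had neighbours over 95%. Members had a median of 2 neighbours and 32.3% had a single neighbour, while 4.6% of all cytosines with stable neighbours had a single one.

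The limits of the rule were met closely by some sites. Just inside, the + strand cytosine at position 5948632 of chromosome 1 had 100% in Ram410, 0% in Ram423 and 43.6% in Ram444 (control), and 50% in Ram424 and 100% in Ram498 and Ram511 (methionine), with a single neighbour that ranged from 90.0% to 100%. Just outside, the - strand cytosine at position 32412579 of chromosome 10 had 97.0%, 0% and 51.9% in the control group. In the methionine group it had 42.3%, 57.1% and 57.1%, with rams in the order above. The mean of its 6 neighbours ranged from 89.3% to 99.4% over rams. The patterns of both sites were of the same kind.

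The opposite-strand cytosine of the same CpG is measured in other reads. It was listed for 530 members, in 425 CpGs, and its level followed that of the member. At 105 of these CpGs the opposite strand was itself selected by the rule, so that its levels there are fixed in part, and the values for the remaining 320 are given alongside. Where the member was in the 0% class the opposite strand had a mean level of 1.29% ± 0.536 (SD, n = 6 rams), where it was in the 50% class 50% ± 1.44 (SD, n = 6) and where it was in the 100% class 97.5% ± 0.381 (SD, n = 6). The opposite strand fell into the same class in 96.9% ± 2.49 (SD, n = 6) of cases for the 0% class and in 96.6% ± 1.88 (SD, n = 6) for the 100% class, but in 51.6% ± 5.59 (SD, n = 6) for the 50% class. At the 320 CpGs whose opposite strand was no member, the mean opposite-strand levels were 1.54% ± 0.758, 49.7% ± 1.58 and 97.3% ± 0.405 (SD, n = 6) in the same order, and 39.8% ± 4.47 (SD, n = 6) were in the same class where the member was in the 50% class. Within a ram, opposite-strand levels at the 50% class had an SD of 14.8 to 16.9 points between CpGs, wider than the 10.5 to 14.0 points that binomial sampling around 50% gives at their coverage. In none of 2550 ram and CpG combinations was a strand in the 0% class and the other in the 100% class.

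**Figure D1:**
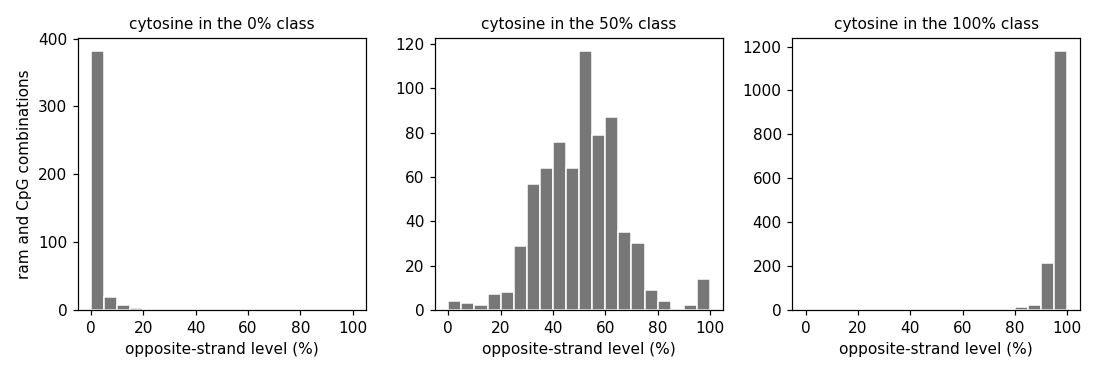
Opposite-strand methylation level (x axis, %, bins of 5 points) against the number of ram and CpG combinations (y axis, all 6 rams together) for 425 CpGs, in panels by the class of the genotype-like cytosine. Levels gather at 0%, around 50% and at 100%, and the middle panel is broad and holds a few combinations at either end.

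Among the 425 CpGs, the opposite-strand level had a range over rams of at least 30 points at 396 (93.2%), where 3.85% of all 546943 CpGs with both strands on the numbered chromosomes had such a range. This comparison is not even, because members had to vary between rams on their own strand. The share at graded cytosines and at class cytosines with unstable neighbours is not given. The rule fixes a range of this size at the 105 CpGs with both strands selected, and without them it was found at 291 of 320 (90.9%). It had a range of at most 10 points at 15 CpGs (3.53%), where the member varied on a single strand. At 134 CpGs (31.5%) both strands were in the same class in all 6 rams, and without the CpGs with both strands selected at 31 (9.69%).

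The contrast between a variable cytosine and stable neighbours was also found in opposite-strand reads. At 405 member CpGs with other opposite-strand cytosines within 50 bp, the opposite-strand cytosine deviated from its mean over the 6 rams by 21.9 ± 1.01 points (SD, n = 6 rams), similar to the 22.0 ± 1.10 points (SD, n = 6) of the members themselves. The other opposite-strand cytosines around it deviated by 2.13 ± 0.195 points (SD, n = 6). The difference of 19.8 points was in the same direction in all 6 rams (exact two-sided sign-flip permutation test over rams, p = 0.03125, adjusted p = 0.03125 over 4 tests, the smallest p that 6 rams allow). At the 300 of these CpGs whose opposite strand was no member, the opposite-strand cytosine deviated by 21.9 ± 1.38 points and its neighbours by 2.32 ± 0.221 points (SD, n = 6), a difference of 19.5 points in the same direction in all 6 rams (exact two-sided sign-flip permutation test, p = 0.03125). On average the direction was the same at graded cytosines (10.5 against 2.89 points) and at class cytosines with unstable neighbours (16.8 against 11.1 points). It was also the same at all cytosines with stable neighbours (1.15 against 0.726 points). A single cytosine can vary more than a mean of several, so the direction alone is not particular to members. The p-values rest on that direction in 6 rams, so they are no support for a trait of members. Further away, the same-strand cytosines at 51 to 200 bp, which were listed for 896 member CpGs, deviated by 3.48 ± 0.283 points (SD, n = 6).

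**Figure D2:**
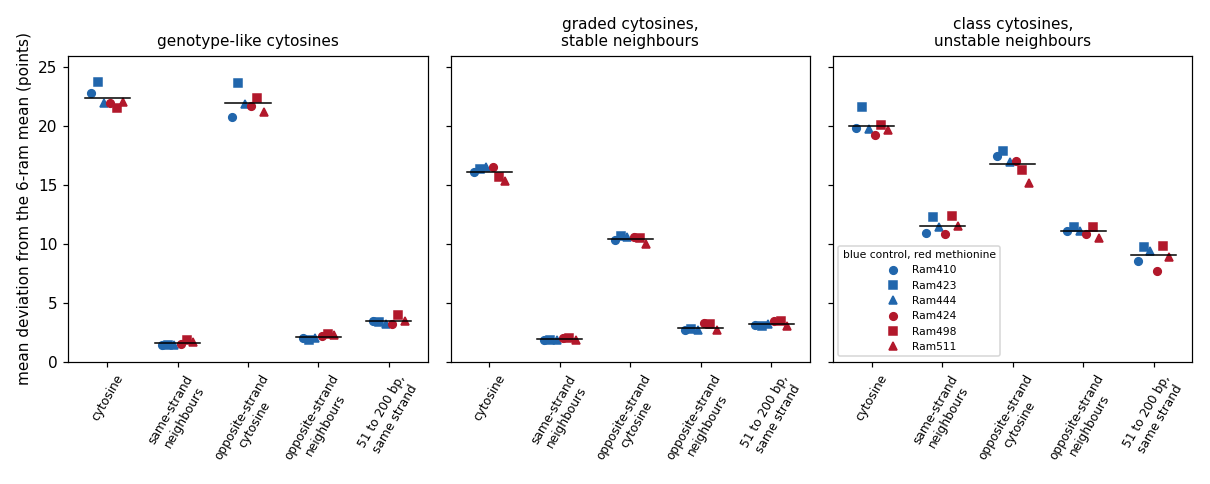
Mean absolute deviation of each ram from the 6-ram mean level (y axis, percentage points) at the cytosine and at 4 measures around it (x axis), for genotype-like, graded and class cytosines with unstable neighbours; points are rams and lines are their means. In genotype-like sites the cytosine and the opposite strand lie near 22 points, and the neighbours of both strands lie between 1.45 and 2.38 points.

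Similar sets of cytosines were compared in the same measures. The mean gap between a cytosine and the opposite strand of its CpG was 5.45 ± 0.357 points (SD, n = 6 rams) at members and 10.4 ± 1.15 points (SD, n = 6) at 2271 graded CpGs. The levels that enter this gap also chose both sets, members inside the classes and graded cytosines outside them, so the difference is a description and no test is given for it. Where every ram had 20 reads or more it was reversed, at 0.543 points (members minus graded, 3 member CpGs). At graded sites the opposite strand deviated by 10.5 ± 0.269 points (SD, n = 6) where the cytosine itself deviated by 13.1 ± 0.793 points (SD, n = 6).

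At the 472 CpGs that met the class part of the rule but had unstable neighbours the gap was 7.0 ± 0.648 points (SD, n = 6). The gap was smaller at members in all 6 rams, with a difference (members minus these sites) of -1.56 points (exact two-sided sign-flip permutation test, p = 0.03125, adjusted p = 0.03125). The class rule chose both sets on the cytosine's own level, which enters this gap, so the p-value describes sets chosen in part on these levels. Leaving out CpGs whose opposite strand was in the same set, the difference was -1.37 points (320 and 409 CpGs, exact permutation p = 0.03125). With classes of 5 points in place of 10 it was -0.603 points and no longer passed (exact p = 0.281), and where every ram had 20 reads or more it was reversed, at 4.58 points with 3 member CpGs (exact p = 0.281). Flanking cytosines at 51 to 200 bp deviated by 9.04 ± 0.807 points (SD, n = 6) around the class cytosines with unstable neighbours. The difference, members minus these sites, was -5.56 points (exact two-sided sign-flip permutation test, p = 0.03125, adjusted p = 0.03125, 6 of 6 rams). Both sets were split by the stability of neighbours within 50 bp, and the flanks adjoin that stretch, so this test is no independent support. Around graded cytosines, which also had stable neighbours, the flanks deviated by 3.23 ± 0.207 points (SD, n = 6), and around all cytosines with stable neighbours by 0.721 ± 0.0684 points (SD, n = 6).

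Single sites show the pattern in full. Among the member CpGs with all 3 classes and an opposite strand in the table, the highest minimum coverage, 21 reads, was shared by 2 sites. The first is the - strand cytosine at position 34400893 of chromosome 4, with 21 to 30 reads per ram. Its levels were 100% in Ram410 and 0% in Ram423 and Ram444 (control), and 51.7% in Ram424, 42.9% in Ram498 and 100% in Ram511 (methionine). The opposite strand had 100%, 5% and 0% in control rams and 41.4%, 50% and 91.7% in methionine-treated rams, while the single neighbour stayed at 95.2% to 100%. Ram410 and Ram511 were thus highly methylated on both strands, Ram423 and Ram444 nearly unmethylated, and the remaining rams intermediate, with both diets holding high and lower levels.

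The other, on chromosome 10 at position 59867682 (+ strand, 21 to 35 reads), had levels that were 47.8%, 96.7% and 0% in control rams and 51.4%, 0% and 0% in methionine-treated rams, in the same order of rams. The opposite strand had 35.0%, 100% and 0%, then 55.6%, 0% and 0%. The mean of the 2 neighbours of this cytosine remained between 95.2% and 98.6% over rams. In Ram444, Ram498 and Ram511, a site read as unmethylated thus lay beside highly methylated cytosines.

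On chromosome 13 at position 13676411 (+ strand, 19 to 41 reads) only Ram511 had 0%, Ram410 and Ram498 had 50% and 52.6%, and Ram423, Ram444 and Ram424 had 95.1%, 100% and 93.8%. The opposite strand had 0% in Ram511, 56.0% and 70.0% in Ram410 and Ram498, and 100% in the others. At position 11297051 of the same chromosome (- strand, 17 to 23 reads) the pattern was the other way round. Ram511 had 100%, Ram498 had 47.4% and the other 4 rams had 0% to 4.35%, where the neighbours had means of 93.5% to 98.7%. On chromosome 8 at position 93941527 (- strand, 17 to 29 reads), levels were 40%, 96.6% and 0% in control rams and 100%, 47.1% and 100% in methionine-treated rams, and the opposite strand had 62.5%, 96.2%, 0%, 100%, 30% and 100%. At 4 of these 5 sites the levels of the 2 diets overlapped, and at position 11297051 they did not, although that site was no DMC in the diet comparison described further on (q of 0.841).

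Members in unmethylated surroundings were few and differed from the rest. At the 28 members with neighbours at 5% or less, 72.0% of ram and member combinations were in the 0% class and 11.9% in the 100% class, and at 23 of them at least 4 rams were in the 0% class. Of the 10 member CpGs with neighbours at 20% or less and a listed opposite strand, 1 had an opposite-strand range of at least 30 points, compared with 385 of 403 with neighbours over 95%. Where such a member was in the 50% class, the opposite strand had a mean level of 12.3% over 13 ram and CpG combinations, whereas it was 50.9% over 658 combinations in surroundings over 95%. This difference was not tested.

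The deepest of these sites was the - strand cytosine at position 95641766 of chromosome 8, with 20 to 38 reads. Ram444 had 58.3% and the other rams 0% to 4.76%, and on the opposite strand Ram444 had 36.8% and all others 0%, so that here both strands moved. By contrast, position 43078585 of chromosome 20 (+ strand, 16 to 27 reads) had 8 neighbours whose mean was 0% to 0.781% over rams. Ram410, Ram444, Ram424 and Ram511 had 50%, 45.0%, 55.6% and 56.2% there, and Ram423 and Ram498 had 6.25% and 0%. The opposite strand had 0% to 6.25% in all 6 rams, and the intermediate level was thus on a single strand. At position 66940893 of chromosome 23 (- strand, 15 to 25 reads) Ram498 had 52.9% against 0% in the other 5 rams, and its opposite strand had 26.7% against 0%.

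Members occurred on all 26 numbered chromosomes. Their frequency ranged from 53.6 per 100000 cytosines on chromosome 5, with 50 members, to 210 per 100000 on chromosome 10, with 106 members. Relative to the methylated DNA covered the range was narrower: per 10000 cytosines with stable neighbours at 95% or more, the frequency was 144 on chromosome 5 and 301 on chromosome 10, with a median of 218 over chromosomes. In absolute number, chromosome 3 held the most, with 225 members.

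Levels at neighbouring members were related. As a description over 6 rams, the mean squared correlation of levels between the CpGs of a pair was 0.692 for 6 pairs within 50 bp, 0.511 for 40 pairs at 51 to 200 bp, 0.539 for 21 pairs at 201 to 1000 bp and 0.447 for 132 pairs at 1001 to 10000 bp. It was 0.343 for 1002 pairs at 10001 to 100000 bp, 0.263 for 7102 pairs at 100001 to 1000000 bp, and 0.208 for pairs on different chromosomes. All pairs share the same 6 rams and libraries, and CpGs that lie close together can be covered by the same reads, which touches the shortest distances, 51 to 200 bp included. The share of pairs with the same class in every ram fell likewise, from 35.0% at 51 to 200 bp and 25.8% at 1001 to 10000 bp to 5.18% at 100001 to 1000000 bp and 2.14% between chromosomes.

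**Figure D3:**
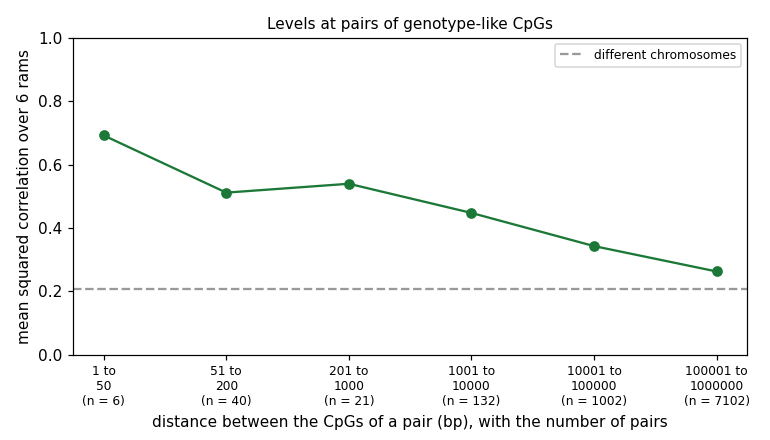
Mean squared correlation of methylation levels over 6 rams (y axis, 0 to 1) for pairs of genotype-like CpGs by the distance between them (x axis, bp, with the number of pairs); the dashed line is the mean for CpGs on different chromosomes, 0.208. The points fall from 0.692 within 50 bp to 0.263 at 100001 to 1000000 bp.

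The densest stretch of 200 bp held 3 member CpGs, on chromosome 20 at positions 46663170 (- strand), 46663211 (+ strand) and 46663288 (+ strand). At all 3, Ram424 and Ram498 were in the 50% class, with levels of 53.3% and 50%, 47.1% and 46.2%, and 52.9% and 53.8%. The 3 control rams and Ram511 had 0% to 4.17% at each of them. The + strand sites had equal coverage in 5 of 6 rams and may share their reads, so they need not be separate measurements. The mean over the same-strand neighbours of each of the 3 sites lay between 91.7% and 100% in every ram. Thus 2 of the methionine-treated rams shared the pattern, and the third methionine-treated ram resembled the control rams.

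The classes were shared most between a control ram and a methionine-treated ram. Ram444 and Ram498 were in the same class at 64.9% of members, while the other 14 pairs of rams shared 45.5% to 51.3% (median 48.6%). Pairs on the same diet shared 46.9% to 51.3%, within the range of the pairs on different diets. Opposite extremes, 0% in a ram and 100% in the other, were found at 2.95% of members for Ram444 and Ram498 and at 7.13% to 12.2% in the other pairs. By chromosome, Ram444 and Ram498 shared 44.0% of classes on chromosome 5 to 86.0% on chromosome 22, and on 13 of 26 chromosomes they shared more than any other pair.

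**Figure D4:**
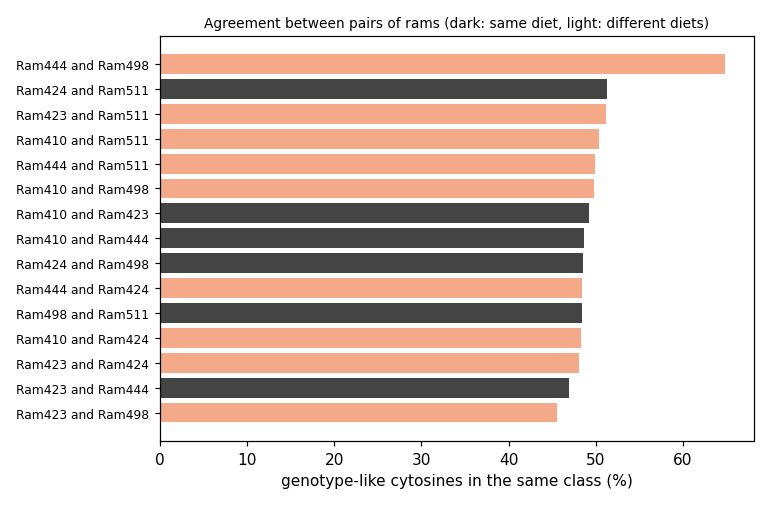
Share of the 2342 genotype-like cytosines that were in the same class in both rams of a pair (x axis, %), for the 15 pairs of rams (y axis); dark bars are pairs on the same diet and light bars pairs on different diets. Ram444 and Ram498 stand at 64.9%, and all other pairs lie between 45.5% and 51.3%.

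In opposite-strand reads the same pair was closest. The mean gap between Ram444 and Ram498 at 425 opposite-strand cytosines was 22.3 points, and in the other 14 pairs it was 27.1 to 36.4 points. At the 320 whose opposite strand was no member it was 23.7 points against 26.7 to 37.1 points. At 878 class cytosines with no neighbour, which are not members, it was 20.3 points against 28.5 to 34.2 points. At class cytosines with unstable neighbours the gap of this pair in opposite-strand reads, 21.8 points, lay within the 17.9 to 27.8 points of the other pairs. Where levels were stable at 95% or more around the cytosine and it was neither graded nor in the classes, the gap was 3.04 points in this pair and 2.64 to 3.31 points in the others. At 642 of the 2271 graded CpGs with a listed opposite strand, the gap of this pair in opposite-strand reads was 23.2 points. In the other pairs it was 25.7 to 32.2 points, and no value over all 2271 is given. Ram444 and Ram498 were thus the closest pair at members, at these 642 graded CpGs and at class cytosines with no neighbour. They were within the range of the other pairs at class cytosines with unstable neighbours and at 13575 other methylated CpGs. The relation of the 2 rams is not given by the labels, and no test was run on this pair because it was singled out from these values.

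The study compared the diets at single cytosines, and its model was refitted here without its covariate for age. This refit called more cytosines than the study reported, so its calls need not be those of the study. Diet was fitted to the reads of all 1850625 cytosines by logistic regression with the overdispersion between rams, and a cytosine counted as differentially methylated (DMC) where q was below 0.01 and the pooled levels of the diets were more than 20 points apart. By this rule 16 members were DMCs (0.683%), where the background was 0.0184% of all cytosines (341 calls). The comparison with the background is not even, because members had to differ between rams by the rule. Graded cytosines, which also varied, had 54 DMCs (0.711%) and class cytosines with unstable neighbours 12 (0.751%). Rams of the 2 diets did not overlap at 122 members (5.21%), against 2.43% of all cytosines and 7.98% of graded cytosines. Averaged over members, control rams had a level of 69.2% ± 1.12 (SD, n = 3), and methionine-treated rams had 69.6% ± 1.36 (SD, n = 3).

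Of the 16 DMCs among members, 9 were hypomethylated and 7 hypermethylated in methionine-treated rams, with differences in size of 42.5 to 84.3 points (median 49.6). Among all 340 DMCs on numbered chromosomes, 290 were hypomethylated and 50 hypermethylated. The counts were 42 and 12 at graded cytosines and 10 and 2 at class cytosines with unstable neighbours. This difference in direction was not tested. At 12 of them all 3 rams of a diet were in the same class, and these were all members with a single class per diet. The F test of the same deviance called 0 cytosines as DMCs (110 of 2342 members at an unadjusted p under 0.05, smallest q 0.971). Without the overdispersion correction 582 members passed. With 1 of the rams left out the rule held for 2460 to 2748 cytosines. For the F test and these other settings no share over all cytosines is given, so the counts have no background beside them. They are therefore not read as a trait of members. With a ram left out the number of members called rose, to 50 without Ram410, 37 without Ram423, 65 without Ram444, 32 without Ram424, 54 without Ram498 and 53 without Ram511.

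Opposite-strand reads were listed for 4 of the 16, and in all 4 the opposite strand differed in the same direction by over 20 points, while it passed the thresholds itself at 3 of them. In an intron of SIN3B, which encodes a scaffold of a transcriptional corepressor complex, the + strand cytosine at position 6370159 of chromosome 5 had 57.7% in Ram410, 55.6% in Ram423 and 56.0% in Ram444 (control), and 4.55% in Ram424, 0% in Ram498 and 5% in Ram511 (methionine; 11 to 27 reads, q of 3.37e-07). Its opposite strand had 55.0%, 57.9% and 31.2%, then 0% in the 3 methionine-treated rams. The mean of the 3 same-strand neighbours lay at 94.9% to 98.7% over rams. Control rams were at the middle level and methionine-treated rams at the low level, on both strands.

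In an intron of CACNA2D3, which encodes an auxiliary subunit of voltage-gated calcium channels, the - strand cytosine at position 48736690 of chromosome 19 had 100%, 100% and 95.7% in control rams and 57.1%, 50% and 55.6% in methionine-treated rams (10 to 39 reads, q of 2.63e-07). The opposite strand had 95.8%, 100% and 100%, then 62.5%, 45.5% and 66.7%. On chromosome 11 at position 7535836 (- strand) the levels were 95.8%, 96.2% and 100% in control rams and 43.8%, 0% and 50% in methionine-treated rams (11 to 26 reads, q of 0.00262). The largest difference, 84.3 points, was on chromosome 23 at position 65080439 (+ strand), where the 3 methionine-treated rams had 100% and control rams had 3.12%, 41.4% and 0% (10 to 36 reads, q of 0.00484). Its opposite strand, with 0%, 58.1% and 0% in control rams and 100% in all methionine-treated rams, did not pass (q of 0.231). At the latter 2 sites the rams of a diet were not all in the same class.

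The other 12 DMCs, which are described because they passed and not by the rule for naming sites, had no opposite strand in the table. Hypomethylated sites lay in an exon of WDR7 (chromosome 23, position 62132154, + strand), with 95.2% to 96.7% in control rams and 44.4% to 47.2% in methionine-treated rams, in an intron of TBCD (chromosome 11, position 13083676, + strand) and in an intron of RAPGEF1 (chromosome 3, position 5277629, - strand). TBCD encodes a cofactor of tubulin folding and RAPGEF1 a guanine nucleotide exchange factor for Rap proteins. The TBCD site had 45.5%, 52.0% and 52.0% in control rams and 0% in all methionine-treated rams, and the RAPGEF1 site had 94.4%, 100% and 100% against 48.0%, 53.3% and 58.3%. In these introns a middle level thus belonged to control rams at the former site and to methionine-treated rams at the latter.

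Hypermethylated sites included an intron of AK8, an adenylate kinase (chromosome 3, position 4288286, + strand). This site had 0% in all control rams and 43.5%, 41.7% and 47.4% in methionine-treated rams, and the study also lists it as hypermethylated. The mean of its 5 neighbours stayed at 97.8% to 100% over rams. In an intron of TRPC7, a cation channel of the TRP family (chromosome 5, position 49947610, + strand), control rams had 50%, 44.1% and 48.1% and methionine-treated rams 100%. The same pattern was found in an intron of LONRF1 (chromosome 26, position 26558595, - strand), with 51.6% to 56.5% against 95.5% to 100%. In PELI3, which encodes a ubiquitin ligase of the Pellino family, a site annotated to the 3ʹ untranslated region (chromosome 21, position 46294763, - strand) had 0% in control rams and 57.1%, 45.5% and 50% in methionine-treated rams. The study's annotation also places this site in an exon and in promoter regions of LOC114110060 and DPP3. Thus both the 0% to 50% and the 50% to 100% steps occurred among hypermethylated sites.

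Intergenic DMCs lay on chromosome 12 (position 83071398, + strand, 0% in control rams and 41.7% to 52.4% in methionine-treated rams) and on chromosome 10 at positions 96011629 and 96013761 (both - strand). The pair on chromosome 10 had 95.7% to 100% in control rams and 40% to 53.3% in methionine-treated rams at both positions. The last 2 DMCs, on chromosome 21 at positions 41852348 and 51890261 (both + strand), had 0% and 100% in all control rams, and with methionine the first had 100% in Ram424 and 50% in Ram498 and Ram511, while the second had 43.8%, 90.0% and 50%. Ram498 had 10 to 17 reads at these 12 sites, which limits the precision of its levels. At each of the 12, the mean of the neighbours remained within 92.9% to 100% in every ram.

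**Figure D5:**
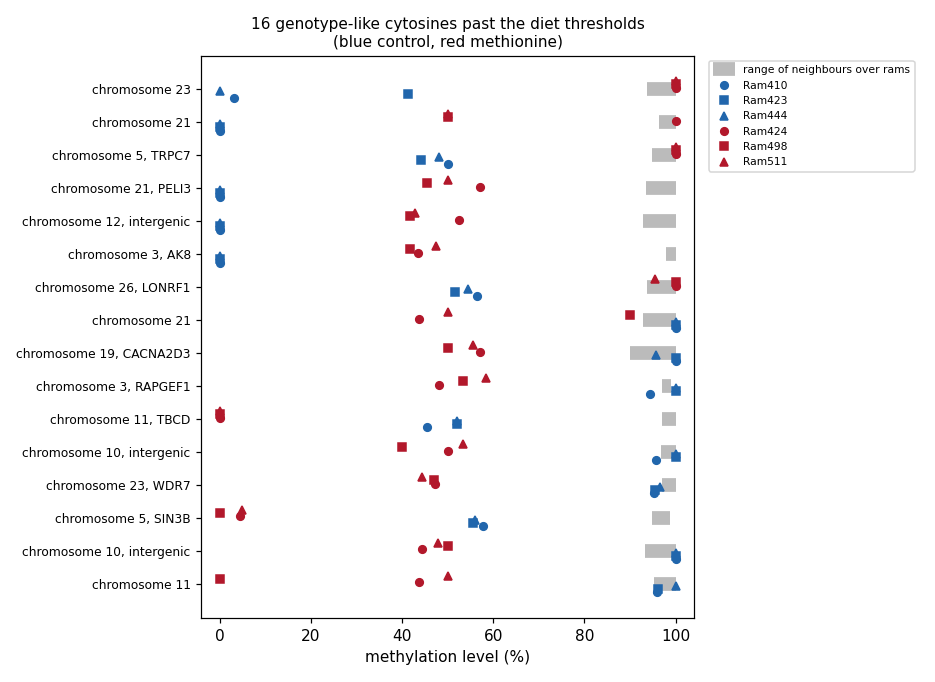
Methylation level (x axis, %) of each ram at the 16 genotype-like cytosines past the diet thresholds (y axis, by chromosome and, where annotated, gene). Control rams are blue and methionine-treated rams red, and the grey bar is the range over rams of the mean of the neighbours. Points stand within 10 points of 0%, 50% or 100%, and the grey bars lie at 90.0% to 100%.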

How the data were processed

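RRBS of sperm was analysed in 6 rams, grouped by the diet in their labels, and the 12 embryo pools were not analysed here. Per the study's methods, the authors aligned cleaned reads to Oar_rambouillet_v1.0 with Bismark and bowtie2, dropped duplicates by barcode and called CpG methylation. The deposited values are raw counts of methylated and unmethylated reads per cytosine, strand and ram, and each listed coverage is 10 reads or more. No replicates were pooled.

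Levels are the methylated share of the coverage. Neighbours were averaged with equal weight per cytosine, and limits were inclusive. Neighbour levels given for a site are the lowest and highest per-ram means, and single neighbours can lie outside them. Opposite-strand cytosines were matched at the adjacent position, and where both strands qualified the CpG was counted once. Contrasts over rams used exact two-sided sign-flip permutations of 6 differences with Benjamini-Hochberg adjustment over 4 tests. The adjustment counts the gap against graded cytosines, for which no p is given. Rams are the replicates, and libraries of a ram were not repeated. The diet model was that of the study without its covariate for age, since ages of single rams were not used here. Its deviance change was divided by an overdispersion of at least 1 and compared with a chi-square distribution, with Benjamini-Hochberg q values over the whole table. The scripts were tested on simulated data. Alternatives were other class widths, neighbour distances and limits, coverage of 20 reads, the F test, no overdispersion and each ram left out.

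The members, comparison sets, lists and tests were chosen with earlier results of these data known, and the ram pairs, the distances between members and the split by level of the surroundings were added after values were seen. Named sites are the 5 member CpGs of highest minimum coverage with all 3 classes and a listed opposite strand, up to 5 DMCs with a listed opposite strand, the 3 of highest minimum coverage with neighbours under 20%, the sites nearest the neighbour limit and the densest 200 bp. Gene features are those of the study's annotation. No genome of this build was used, so no sequence is shown. Tools were Python 3.11.15 with scipy 1.17.1, numpy 2.4.6, pandas 2.3.3, and matplotlib 3.10.9 for plots.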

Additional observations from a re-analysis of the deposited data

How the results depend on the processing

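The number of members followed the strictness of the rule. It was 563 with classes of 5 points and 3888 with 15 points, 1368 with neighbours limited to 5 points, 949 with at least 3 neighbours and 34 with at least 20 reads in each ram, and it was 2460 to 2748 with a ram left out. Neighbours within 25 or 100 bp, a limit of 20 points, neighbours averaged by pooled reads and 1 strand per CpG kept it within 1.5 times. Among the members, 0 DMCs were called with the F test, 582 without overdispersion correction and 0 with at least 20 reads. There were 2 with classes of 5 points, 34 with 15 points, and 32 to 65 with a ram left out. These counts have no share over all cytosines beside them. The contrast of the opposite strand with its neighbours and that of the flanks kept direction and call in the 5 other alternatives planned over 6 rams, although with at least 20 reads the former rested on 2 CpGs and was 3.81 points. With at least 20 reads, only 3 member CpGs had an opposite strand, and the gap differences were 0.543 points against graded cytosines and 4.58 points against unstable neighbours (exact p = 0.281), both reversed. With classes of 5 points the latter was -0.603 points. With a ram left out the values were 18.5 to 19.5, -5.25 to -4.57, -1.84 to -1.40 and -5.72 to -5.10 points for the opposite strand, the gaps to graded and to unstable sites and the flanks, and 5 rams allow no exact p under 0.0625. Leaving out CpGs whose opposite strand was itself in the set, chosen after seeing the data, kept the direction of the 3 opposite-strand contrasts.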
